A study of Mus musculus with 394 samples.

Results

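The genes described here are 9 genes of the membrane skeleton and of actin crosslinking, followed through every library of a mouse brain series on ribosome-bound and presynaptic mRNA of dopamine neurons. They were chosen by symbol, as the rows named Sptan1, Sptbn1, Actn1, Actn4, Dst, Macf1, Ank2, Ank3 and Add2. These are 9 of 48526 genes in the table of UMI counts, where each unique molecular identifier marks 1 captured molecule, and 9 of 55487 genes in the table of full-length reads. Spectrins are long, flexible proteins, built as alpha and beta chains that pair head to tail and tie short actin filaments into a lattice under the plasma membrane. In axons this lattice forms evenly spaced rings. Ankyrins fasten spectrin to ion channels, transporters and adhesion molecules, and adducin sits where spectrin meets the end of an actin filament. Alpha-actinins bundle actin filaments, and the very large spectraplakins bridge actin to microtubules.

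Sptan1 encodes the alpha-II spectrin chain and Sptbn1 the beta-II chain, its main partner in axons. Ank2 encodes ankyrin-B, found along axons, and Ank3 encodes ankyrin-G, which organises the axon initial segment and the nodes of Ranvier. Add2 encodes beta-adducin. Actn1 and Actn4 encode the broadly expressed alpha-actinins, and Dst (dystonin) and Macf1 the spectraplakins. All 9 are long genes. Their exonic lengths in GENCODE vM21, on GRCm38, ran from 5533 bases for Actn1 to 41155 bases for Dst, with a median of 17492 against 3488 over 22028 coding genes, and each of the 9 lay above that coding median. In the same annotation Sptan1 lies at chr2:29965560-30031451, Sptbn1 at chr11:30099395-30268175, Ank2 at chr3:126921612-127499350 and Ank3 at chr10:69398773-70027438. Dst lies at chr1:33908225-34308661, Macf1 at chr4:123349633-123684360, Actn1 at chr12:80167547-80260371, Actn4 at chr7:28893248-28962340 and Add2 at chr6:86028681-86124409.

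The series holds 394 sequenced libraries, which became 314 samples after repeat wells of the same preparation were summed. Mice used for IPs and Inputs carried 1 RiboTag allele, an Rpl22 gene that gains an HA tag on ribosomes wherever Cre has acted. Cre+ mice also carried Cre in the dopamine transporter locus (genotype DAT-IRES-Cre/wt;RiboTag+/-), so that the tag is limited to cells that have expressed this gene, and Cre- littermates (DAT-wt/wt;RiboTag+/-) had no tagged ribosomes. An anti-HA immunoprecipitate (IP) from a Cre- mouse therefore measures untagged background, and the Input is the lysate before the IP. Striatum, which holds dopamine axons but not their cell bodies, was taken at P0, P7, P14, P21, P31, P90 and 10-14 months (68 IPs and 70 Inputs). Substantia nigra pars compacta (SNc), ventral tegmental area (VTA) and substantia nigra reticulata (SNr) were taken at 10-14 months, with 6 Cre- and 4 Cre+ samples per region and fraction for UMI libraries, and with 3 IPs and 3 Inputs per region for full-length libraries, all Cre+. Synaptosomes at 10-14 months gave 8 striatal and 14 ventral midbrain IPs. Fluorescence-activated synaptosome sorting (FASS) gave 12 samples sorted on fluorescence and 12 small particle samples at P90-150. They came from DAT-Cre mice given an EGFP virus (6 striatal of each) or from VGLUT1 VENUS mice (3 striatal and 3 cortical of each). The small particle samples were also sorted, but as all small particles, without selection by fluorescence. The labels do not say that each sample is a separate animal, so p-values measure the spread between samples, which may in part be technical. The study describes a striatal IP and an Input from every mouse, but the labels do not tie the pairs together, and the tests treat IPs and Inputs as independent.

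Depth set the precision for single genes. Striatal IPs held 11405 to 208783 UMIs and striatal Inputs 36132 to 1796764, while midbrain UMI IPs held 17831 to 92936 and FASS samples 13072 to 39742. Full-length IPs held 4018290 to 11363737 reads. All 9 genes passed the filter on low counts in every comparison below. Levels are given as CPM, a gene's count scaled to a common library total, and fold changes as log2 values ± SE from edgeR's quasi-likelihood test, called where the Benjamini-Hochberg adjusted p over all genes tested was under 0.05. In these bulk samples fewer cells of a type and less RNA per cell cannot be told apart.

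The highest levels of 8 of these genes in any UMI library, Add2 excepted, were found among 6 striatal IPs of P7 on 1 plate (BH001) and the striatal IPs of 10-14 months, although not every one of these exceeded all other libraries. On plate BH001, Sptan1 stood at 3746, 4280 and 1555 CPM in the 3 Cre- P7 IPs and at 4535, 4919 and 5174 CPM in the 3 Cre+ P7 IPs. The 8 P7 Inputs of that plate held 210 to 261 CPM (median 229), and the 24 IPs of other ages on that plate held 92.0 to 406 CPM (median 197). So all 6 P7 IPs were above every Input of their age and every other IP of their plate, with or without the tag. The same tissue, age and genotypes on plates PB003 and PB008 gave 68.9 to 399 CPM of Sptan1 in 6 IPs (median 153), resting on 23 UMIs in all against 4164 in the 6 IPs of BH001.

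Sptbn1 showed the same split. It stood at 6543, 6743 and 2241 CPM in the Cre- P7 IPs of plate BH001 and at 8683, 9305 and 8969 CPM in the Cre+ ones, against 255 to 437 CPM in the P7 Inputs and 0 to 455 CPM in the P7 IPs of PB003 and PB008. The third Cre- IP was the lowest of the 6 for both spectrins, yet still above the P7 Inputs of that plate and the P7 IPs of the other plates. Macf1 stood at 1504, 1150 and 361 CPM in the Cre- and 2976, 3030 and 2482 CPM in the Cre+ IPs.

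Among the linker proteins, Ank2 ranged from 622 to 3055 CPM (median 2338) and Ank3 from 735 to 2447 CPM (median 2076) over these 6 IPs. The crosslinkers were also high, with Dst at 297 to 2111 CPM (median 1589), Actn1 at 247 to 897.5 CPM (median 818) and Actn4 at 226 to 962 CPM (median 766). Actn1 was at 0 in 5 of the 6 P7 IPs of the other plates, where 1 UMI was seen in total. Add2 was the exception, with 84.9 to 163 CPM in the 6 IPs (median 125), against 64.4 to 138 CPM in the P7 Inputs and 99.7 to 342 CPM in the IPs of other ages.

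Counted over libraries with no overlap at all, 8 of the 9 genes were higher in the P7 IPs of BH001 than in the P7 IPs of PB003 and PB008, where 13.1% of all genes tested were. The ratio of mean CPM was 8.7 for Macf1, 9.8 for Dst, 11.5 for Actn4, 20.7 for Ank2, 23.0 for Sptan1, 23.7 for Ank3 and 25.4 for Sptbn1, against a median of 0.58 on the log2 scale over all genes. Against the P7 Inputs of the same plate 8 of 9 were higher without overlap (4.09% of all genes), at 7.9 to 20.5 times the mean Input level, with Add2 at 1.15 times. Against IPs of other ages on the same plate 7 of 9 were (0.411% of all genes), all but Macf1 and Add2. The 3 Cre+ IPs lay above the 3 Cre- IPs for Sptan1, Sptbn1, Dst, Macf1, Ank2 and Ank3 (6 of 9 genes, 5.62% of all genes), with ratios of mean CPM from 1.10 to 2.82 over the 9 genes. In the P7 Inputs the plates differed the other way, with 5 of the 9 lower on BH001 without overlap (8.07% of all genes).

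Other measures differed between the P7 sets as well. The 6 P7 IPs of BH001 held 141468 to 208783 UMIs and those of PB003 and PB008 held 14515 to 24167. Summed dopamine neuron markers (Th, Slc6a3 and 5 others) stood at 27.7 to 39.2 CPM in the former and 166 to 689 CPM in the latter, and summed oligodendrocyte markers at 848 to 1228 against 1543 to 3858 CPM. The part of depth, plate and these markers in the difference was not tested, and plate cannot be told apart from the preparations it held. The 9 genes together made up 6447 to 26565 CPM of the BH001 P7 IPs and 827 to 1907 CPM of the others.

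**Figure D1:**
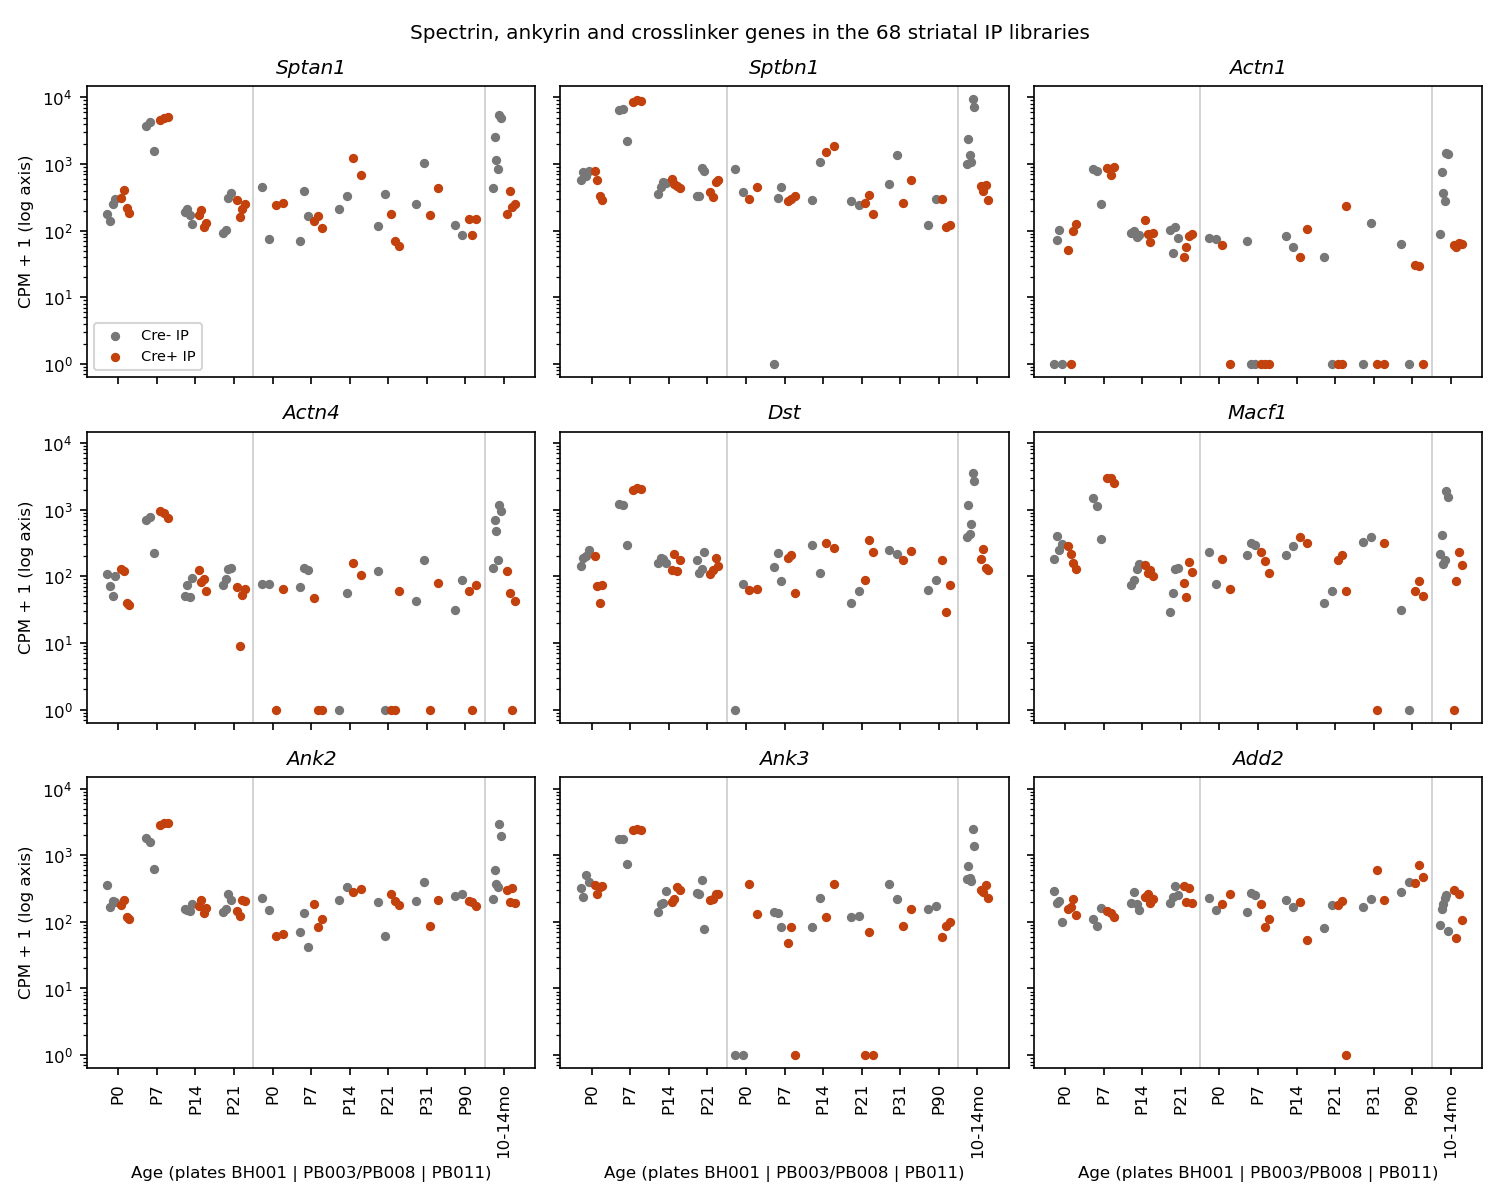
Each panel shows 1 gene in the 68 striatal IP libraries, as CPM plus 1 on a log axis, by age within plates BH001, PB003/PB008 and PB011, with Cre- samples in grey and Cre+ samples in orange. The 6 P7 IPs of BH001 lie above every IP of another age on that plate for 7 genes, all but Macf1 (lowest 361 CPM against up to 399) and Add2, and the Cre- IPs of 10-14 months on PB011 spread upwards over a wide range.

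At 10-14 months the untagged striatal IPs held more of these mRNAs than the tagged ones, a contrast that was known when the genes were proposed. In the 6 Cre- IPs Sptan1 stood at 436, 2567, 1149, 830, 5411 and 4896 CPM, and in the 4 Cre+ IPs at 178, 391, 228 and 250 CPM, so that the groups did not overlap. Inputs of both genotypes held 71.9 to 208 CPM. Sptbn1 stood at 1004, 2369, 1390, 1056, 9397 and 7172 CPM in the Cre- IPs and at 476, 391, 488 and 292 CPM in the Cre+ IPs. Cre- IPs 5 and 6 were the highest of the 6 for 8 of the genes, and the other 4 Cre- IPs lay between them and the Cre+ IPs for both spectrins.

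The crosslinkers followed this order. Actn1 ranged from 87.3 to 1461 CPM in the Cre- IPs (median 565) and was at 59.5, 55.9, 65.1 and 62.6 CPM in the Cre+ IPs. Actn4 ranged from 131 to 1154 CPM (median 593) and was at 119, 55.9, 0 and 41.7 CPM. Dst was at 393, 1185, 423, 604, 3517 and 2676 CPM against 178, 252, 130 and 125 CPM, again with no overlap. For Macf1 (151 to 1876 CPM in Cre- IPs, 0 to 228 CPM in Cre+ IPs) and for Ank2 (218 to 2976 against 188 to 325 CPM) the lowest Cre- IPs fell within the Cre+ range. Ank3 ran from 402 to 2489 CPM in Cre- IPs and from 229 to 358 CPM in Cre+ IPs. Add2 overlapped throughout, at 72.8 to 253 CPM and 55.9 to 297 CPM.

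In the edgeR fit, 8 of the 9 genes were lower in Cre+ than in Cre- IPs, where 0.628% of 11472 genes were. The genes were proposed with this contrast known, so the counts describe it and do not test it. The interaction and the comparison with Inputs below rest on the same Cre- IPs. The differences were -3.36 ± 0.33 for Sptan1, -3.35 ± 0.32 for Sptbn1, -3.74 ± 0.43 for Actn1, -3.85 ± 0.47 for Actn4, -3.28 ± 0.35 for Dst, -2.71 ± 0.37 for Macf1, -2.34 ± 0.33 for Ank2 and -1.93 ± 0.32 for Ank3. Add2 differed by -0.14 and was not called. Groups did not overlap for 6 of 9 genes (1.19% of all genes). The Inputs of these genotypes gave no call among the 9, with 1 of them among 487 genes at an unadjusted p under 0.05 (calls over all genes were 0.0349% higher and 0.0262% lower in edgeR). The change with genotype differed between IP and Input for the same 8 genes, by -1.80 to -4.26 (0.296% of all genes called lower), of which DESeq2 called 3, Sptan1, Actn1 and Actn4 (adjusted p of the other 5 from 0.0588 to 0.269). Without Cre- IPs 5 and 6, 5 of the 9 were called lower in the Cre+ IPs (Sptan1, Sptbn1, Actn1, Actn4 and Dst), and 2 for the difference between IP and Input (Sptan1 and Actn1). The share of all genes called without these libraries is not given here.

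Set against their own Inputs, the Cre- IPs were higher for 8 of 9 genes (4.14% of all genes), by 2.5 to 4.66, while Add2 stood at -0.56. Of the Cre+ IPs 1 gene was higher, Sptbn1 at 1.20 ± 0.37 (1.54% of all genes). Oligodendrocyte and dopamine neuron markers overlapped between the genotypes, while spiny neuron markers did not. Summed oligodendrocyte markers were at 1615 to 4184 CPM in Cre- and 2439 to 3504 CPM in Cre+ IPs, and dopamine neuron markers at 18.2 to 302 and 59.5 to 250 CPM. Spiny neuron markers were at 2417 to 3839 CPM in Cre- and 3904 to 5116 CPM in Cre+ IPs, without overlap. The 9 genes summed to 3012 to 28533 CPM in Cre- IPs, to 1439 to 2082 CPM in Cre+ IPs and to 887 to 2178 CPM in Inputs.

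Other genes of the same system behaved unevenly in this contrast. The beta spectrin genes Sptb and Sptbn4 were lower in Cre+ IPs, with log2 differences of -5.61 and -1.96. Of 11 other actin crosslinkers and spectrin repeat proteins 2 were lower, Actn2 (-3.16) and Plec (-2.83), and of 11 other ankyrins, adducins and adaptors 1 was, the filament capping protein Tmod1 (-2.0). None of 12 membrane proteins that ankyrins bind was called.

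**Figure D2:**
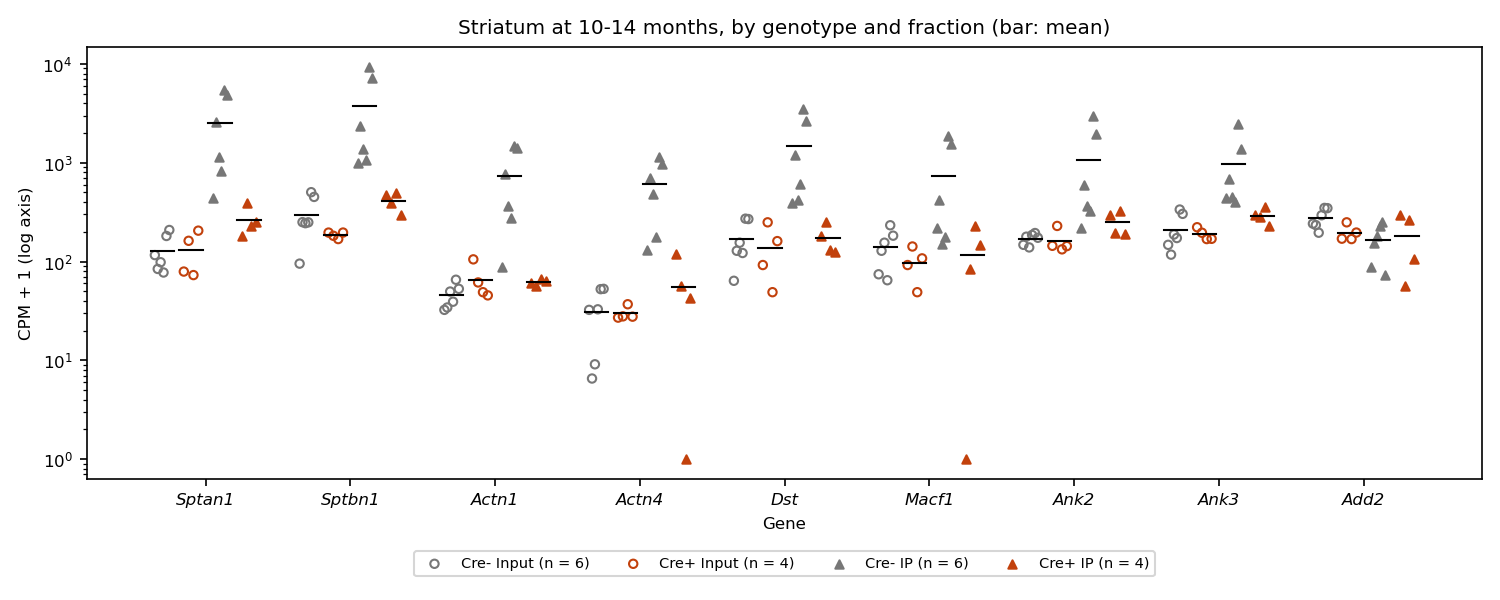
CPM plus 1 on a log axis in the striatum at 10-14 months, with open circles for Inputs and triangles for IPs, grey for Cre- (6) and orange for Cre+ (4), and bars at the group means. The Cre- IPs lie above the Cre+ IPs for 6 genes without overlap.

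Taking all striatal ages together, the untagged and the tagged IPs were both higher than Inputs for most of the 9 genes. In Cre- mice 8 of 9 were higher (16.2% of 19334 genes), from 1.28 ± 0.22 for Ank3 to 2.24 ± 0.26 for Actn4. Sptbn1 was at 2.23 ± 0.27, Actn1 at 2.02 ± 0.27, Sptan1 at 1.81 ± 0.30, Dst at 1.70 ± 0.26, Ank2 at 1.57 ± 0.25 and Macf1 at 1.31 ± 0.28, with Add2 at 0.37 ± 0.15 (adjusted p = 0.0504 in edgeR). In Cre+ mice all 9 were higher, by 0.70 to 1.70 (18.7% of all genes). With all ages pooled, 0 of the 9 and 0% of all genes were called for the interaction of genotype and fraction. None of the 9 was among 897 genes at an unadjusted p under 0.05. This term pools all ages, so it cannot show that the genotypes were alike at each age. On plate BH001 the 3 Cre+ P7 IPs lay above the 3 Cre- P7 IPs without overlap for 6 of the 9 (5.62% of all genes). No test by genotype was run on these P7 libraries. At the oldest age the interaction was called for 8 of the 9, lower in Cre+ mice. For IPs over Inputs with all ages pooled, TMMwsp scaling moved the median of all genes from 0.09 to -0.29 in Cre- mice, where Add2 turned to -0.10. In Cre+ mice the median moved from 0.15 to -0.21, and 6 of the 9 were called.

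Much of this rested on the libraries described above. Without the 6 P7 IPs of BH001, 2 of the 9 were called in Cre+ mice, Sptbn1 and Add2. Leaving out the 10-14 month samples as well, the Cre- IPs were higher for 3 genes, at 1.04 for Sptbn1, 0.70 for Actn4 and 0.74 for Add2, while Sptan1 stood at 0.10 and Macf1 at 0.32. On plates PB003 and PB008 alone, 0 of the 9 were called in Cre- and 1 in Cre+ mice. These fits hold fewer samples, and the share of all genes called in them is not given here. The part of lower power in the smaller counts was not tested.

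Long genes as a class leaned the same way, since among genes with over 10 kb of exon 30.5% were higher in Cre- and 36.0% in Cre+ IPs. The beta spectrin genes Sptb and Sptbn4 were higher in both genotypes, Sptb by 1.96 and 1.78 and Sptbn4 by 1.08 and 1.40. Of 13 other crosslinkers 5 were higher in Cre- mice, led by Actn2 at 2.64, a muscle and dendritic spine alpha-actinin. Endothelial and mural markers, a list apart from these genes, were higher for 7 of 7 genes in Cre- and 6 of 7 in Cre+ IPs, and their part in the result was not tested.

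**Figure D3:**
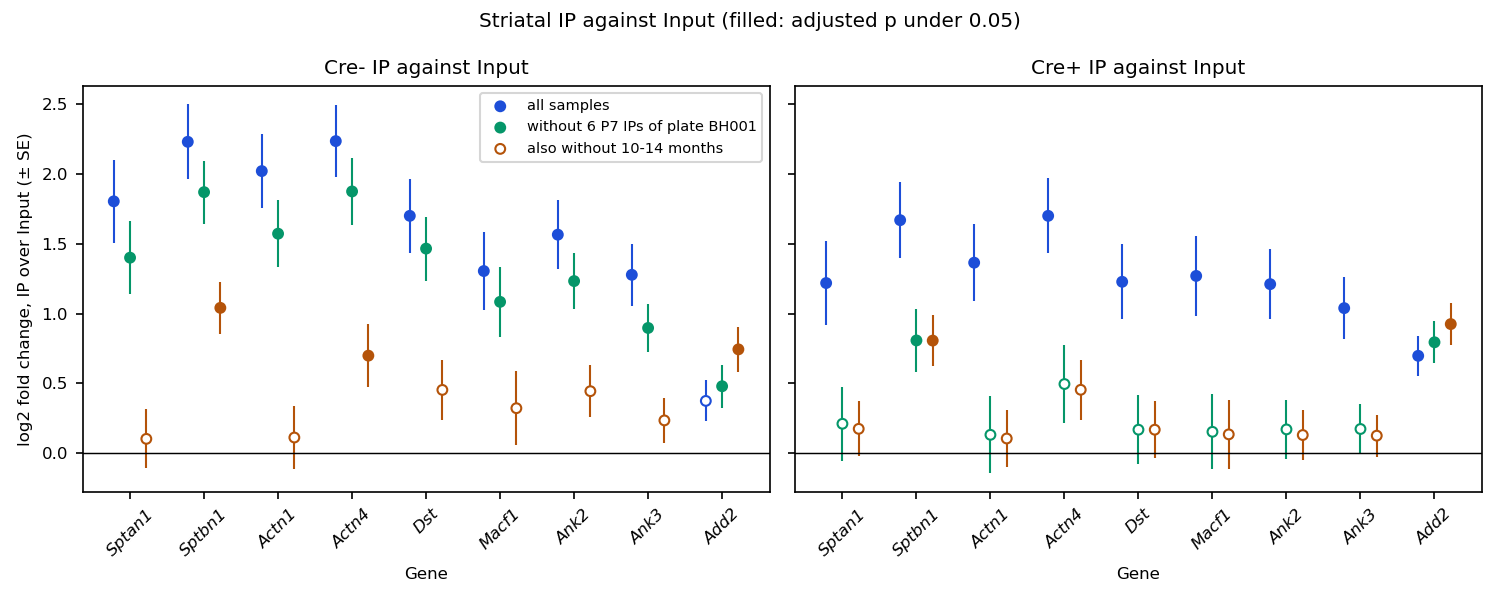
Log2 fold change of striatal IPs over Inputs with its SE, for Cre- and Cre+ mice, in all samples (blue), without the 6 P7 IPs of plate BH001 (green) and also without the 10-14 month samples (brown), with filled points at adjusted p under 0.05. In Cre- mice 8, then 9, then 3 of the genes were called.

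The striatal Inputs carry the age course without the IPs. Over the Inputs of plate BH001, with 8 per age, Actn1 had the widest course, from a median of 22.8 CPM at P0 (8.83 to 68.6) to 90.8 at P7, 109 at P14 and 80.3 at P21 (63.4 to 143). Only the highest P0 Input overlapped the P21 range. Ank2 had medians of 75.9 CPM at P0, 156 at P7, 130 at P14 and 145 at P21, and Ank3 medians of 180, 194, 241 and 240 CPM. Macf1 went the other way, with medians of 114 and 116 CPM at P0 and P7 and of 67.2 and 57.0 CPM at P14 and P21.

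An age effect over these Inputs was called for 5 of the 9 genes (32.3% of 14620 genes). From P0 to P21, Actn1 changed by 1.74, Ank2 by 0.90, Ank3 by 0.46, Sptbn1 by 0.18 and Macf1 by -0.88. Sptan1 (-0.17, adjusted p = 0.0723 in edgeR), Actn4, Dst and Add2 (adjusted p = 0.0574) were not called. Over the striatal Inputs of all plates and ages, Ank3 alone of the 9 was not called for age (0.12 for P90 over P0, adjusted p = 0.156 in edgeR). Over all striatal ages, fractions and plates all 9 were called for age (58.8% of all genes), and 6 were without the P7 IPs of BH001 and the 10-14 month samples, with Sptbn1, Actn4 and Ank3 no longer called.

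In the midbrain at 10-14 months the untagged and the tagged IPs moved apart. Sptan1 was at 68.2 to 582 CPM in 18 Cre- IPs (median 211) against 0 to 176 CPM in their Inputs (median 91.5), and at 29 to 123 CPM in 12 Cre+ IPs (median 82.7) against 40.8 to 239 CPM in theirs (median 130). Ank3 was at 113.6 to 530 CPM in Cre- IPs (median 264) and at 0 to 112.8 CPM in Cre+ IPs (median 77.5), so that the ranges all but touched. Their Inputs held medians of 171.5 and 189 CPM of Ank3.

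Sptbn1, Ank2, Macf1 and Dst had the same order of the IP medians. Sptbn1 had medians of 356 CPM in Cre- IPs (41.3 to 785) and 117.5 CPM in Cre+ IPs (0 to 317), with 199 and 230 CPM in the Inputs. Ank2 had medians of 311 and 103 CPM in the IPs and 242.5 and 244 CPM in the Inputs, and Macf1 medians of 183 and 55.1 CPM against 152 and 159 CPM. The IP medians of Dst were 335 and 137 CPM, with 274 and 229 CPM in Inputs. For each of these 4 genes the Cre+ IPs had the lowest median of the 4 sets. Add2 was below Inputs in both genotypes, with medians of 77.7 CPM in Cre- IPs against 111 CPM and of 60.4 CPM in Cre+ IPs against 101 CPM. Actn1 went the other way, with means of 11.3 CPM in Cre- and 27.9 CPM in Cre+ IPs, and neither gene was called between them. Actn1 and Actn4 were close to the limit of counting here, with 15 and 14 UMIs over all 12 Cre+ IPs.

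In the test, 5 of 9 genes were higher in Cre- IPs than in Inputs (9.2% of 14670 genes), namely Sptan1 by 1.39 ± 0.19, Sptbn1 by 0.83 ± 0.16, Ank3 by 0.77 ± 0.17, Ank2 by 0.59 ± 0.16 and Dst by 0.50 ± 0.16. The median of all genes was 0.11 here and -0.29 with TMMwsp scaling, under which 2 were called, Sptan1 higher and Add2 lower (-0.79). In Cre+ IPs 6 of 9 were lower than in Inputs (7.17% of all genes). Ank3 fell by 1.67 ± 0.27, Macf1 by 1.53 ± 0.30, Actn4 by 1.46 ± 0.48, Ank2 by 1.31 ± 0.23, Sptbn1 by 1.02 ± 0.23 and Dst by 0.83 ± 0.22, beside a median of -0.12 over all genes. Sptan1 stood at -0.64 ± 0.28 (adjusted p = 0.116 in edgeR), Add2 at -0.79 (adjusted p = 0.0502) and Actn1 at 0.45.

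The difference between the genotypes in this IP over Input ratio was itself called for 7 of 9 genes (5.38% of all genes called lower). It was -2.43 ± 0.32 for Ank3, -2.05 for Actn4, -2.02 ± 0.34 for Sptan1, -1.91 for Macf1, -1.90 for Ank2, -1.85 for Sptbn1 and -1.33 for Dst. The median of all genes was -0.29, so that relative to it the 7 lay between -1.04 and -2.14. Compared directly, the Cre+ IPs were lower than the Cre- IPs for the same 7 genes, by 1.53 to 2.52 on the log2 scale (12.5% of all genes, median -0.41).

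Markers of other cells moved with these values. Summed oligodendrocyte markers were at 609 to 4216 CPM in Cre+ IPs and 3787 to 8221 CPM in Cre- IPs, with 5112 to 16659 CPM in Inputs, while dopamine neuron markers were at 4421 to 9280 CPM in Cre+ IPs and 189 to 1445 CPM in Cre- IPs. Nuclear RNAs were at 189 to 1991 and 950 to 7856 CPM. Their part in the result was not tested. Long genes moved too, since 27% of genes with over 10 kb of exon were lower in Cre+ than in Cre- IPs, against 7.52% of those under 2 kb.

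Among the tagged UMI IPs no member differed by region. SNr against SNc, VTA against SNc and SNr against VTA each gave 0 of 9 calls in edgeR and in DESeq2, beside 0.3%, 0.518% and 0.654% of all genes in edgeR. At an unadjusted p under 0.05 there were 2, 1 and 3 of the 9 among 1130, 1262 and 1285 genes. Sptbn1 held 115 to 317 CPM in the 4 SNr IPs, 0 to 184 CPM in the SNc IPs and 14.5 to 167 CPM in the VTA IPs.

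**Figure D4:**
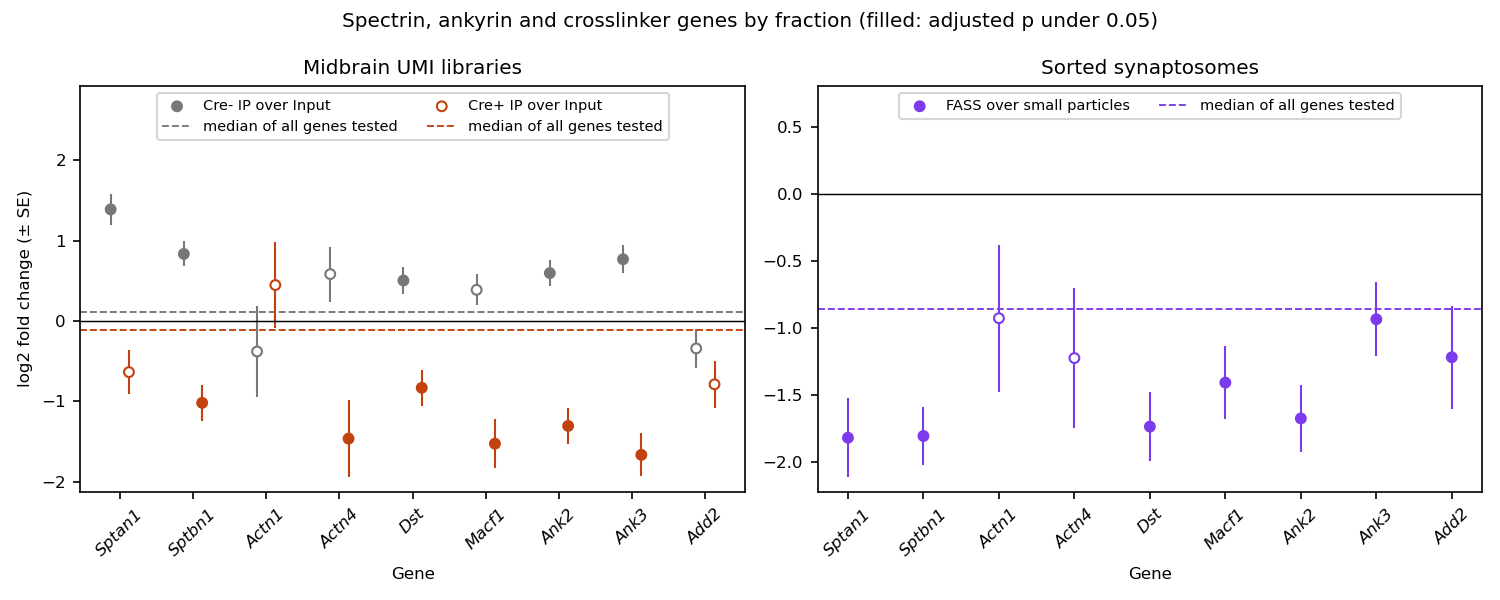
Left, log2 fold change of midbrain IPs over Inputs with its SE in UMI libraries, for Cre- (grey) and Cre+ (orange) mice. Right, FASS over small particles (violet), with dashed lines at the median of all genes (-0.86 for FASS) and filled points at adjusted p under 0.05. The Cre+ points lie below the Cre- points for 8 genes, and the FASS values of all 9 lie below their median line.

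The full-length libraries, all from Cre+ mice, gave the same genes at far greater depth, and per length, as CPM per kilobase of exon (RPKM). Over the 9 IPs the order of RPKM levels was Sptan1 at 54.4 ± 18.2 (SD, n = 9), Sptbn1 at 27.6 ± 12.9, Add2 at 21.4 ± 4.80, Ank2 at 19.4 ± 5.81, Dst at 19.4 ± 2.84, Macf1 at 8.68 ± 4.59, Ank3 at 8.09 ± 3.48, Actn4 at 7.90 ± 3.09 and Actn1 at 5.41 ± 3.01. Sptan1 was above 95.33% of 18499 genes and Actn1 above 61.18%. From Sptbn1 to Dst, and from Macf1 to Actn1, neighbours in this order differed by less than the larger of their SDs. The order differed by region, with a mean of 26.9 RPKM for Add2 above 21.7 RPKM for Sptbn1 in VTA IPs, and of 11.8 RPKM for Actn4 above 8.94 RPKM for Ank3 in SNr IPs.

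Macf1 had the clearest gap between fractions in SNc and VTA. It was at 6.16 to 7.74 RPKM in the 3 SNc IPs and at 5.08 to 9.00 RPKM in the 3 VTA IPs, against 17.2 to 19.6 RPKM over all 9 Inputs. Ank3 was at 7.24 to 11.9 RPKM in SNc IPs and 4.19 to 7.72 RPKM in VTA IPs, below all Inputs at 13.1 to 16.3 RPKM. In each case the IPs of these regions did not reach the Inputs, while 1 SNr IP did.

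Relative to Inputs, 7 of 9 genes were lower in SNc IPs (14.8% of 17235 genes), 7 of 9 in VTA IPs (18.6%) and 6 of 9 in SNr IPs (17% of all genes). Macf1 fell by 1.63 ± 0.23 in SNc and by 1.80 ± 0.24 in VTA, and Ank3 by 0.99 ± 0.24 and 1.74 ± 0.25. Sptbn1 fell by 1.16 ± 0.20 in SNc, by 1.10 in VTA and by 0.58 in SNr (adjusted p = 0.0296 in edgeR and 0.0954 in DESeq2), and Dst by 0.91, 0.94 and 0.84. Ank2 fell by 0.40 ± 0.15 in SNc and 1.21 ± 0.15 in VTA.

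The other members were mixed. Sptan1 was lower in VTA IPs (-1.03 ± 0.19), with -0.29 in SNc and -0.39 in SNr not called. Actn4 was lower in SNc (-0.79 ± 0.17) and VTA (-0.77), and Add2 in SNc (-0.60 ± 0.12) and SNr (-0.37). Actn1 was not called in any region, with values of -0.33, 0.53 ± 0.23 and -0.14 in SNc, VTA and SNr. Long genes were lower more often than others, at 38.7%, 35.7% and 34.0% of those with over 10 kb of exon in SNc, VTA and SNr.

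The other lists were also read against Inputs. Sptb was lower in each region, at -1.68, -1.58 and -1.61 in SNc, VTA and SNr, and Sptbn4 at -0.78, -0.72 and -0.59. Other ankyrins, adducins and adaptors were lower for 8, 5 and 6 of 11 genes. Membrane proteins that ankyrins bind went both ways, with 4, 5 and 6 of 12 higher and 6, 2 and 4 lower. L1cam, an axonal adhesion molecule, was among the higher ones by 1.39, 1.53 and 1.76. Nuclear RNAs were at 233 to 2476 CPM in the IPs and 7110 to 9579 CPM in Inputs, and oligodendrocyte markers at 454 to 3331 and 5859 to 10345 CPM.

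Actn1 had the widest regional difference among the 9. Its RPKM was 2.18, 1.74 and 2.27 in SNc IPs, 5.22, 3.93 and 7.76 in VTA IPs and 9.01, 9.05 and 7.56 in SNr IPs, with SNc below both other regions in every library. The Inputs had the same order, at 1.98, 1.87 and 2.45 in SNc, 2.95, 3.19 and 3.24 in VTA and 7.78, 7.57 and 5.88 in SNr. Actn1 was higher in SNr than SNc IPs by 1.97 ± 0.24 and in VTA than SNc IPs by 1.42 ± 0.24.

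The beta-adducin and alpha-spectrin genes differed between VTA and SNc in opposite directions. Add2 stood at 25.6 to 28 RPKM in VTA IPs and at 16.3 to 17.7 RPKM in SNc IPs, higher by 0.63 ± 0.12. Sptan1 stood at 53.1, 34.9 and 31.6 RPKM in VTA IPs and at 56.8, 76.6 and 66.0 RPKM in SNc IPs, a log2 difference of -0.76 ± 0.19 for VTA over SNc. Ank2 (-0.88 ± 0.15) and Ank3 (-0.85 ± 0.24) were lower in VTA as well. In all, 2 of 9 genes were higher in VTA than in SNc IPs (6.32% of all genes) and 3 lower (12% of all genes), with a median of -0.15 over all genes.

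Calls in the SNr comparisons changed with single libraries. SNr IP 3 held 83.9 RPKM of Sptan1 against 44.4 and 42 in the other SNr IPs, and 59.6 RPKM of Sptbn1 against 27.7 and 30.7, with the highest nuclear RNA sum of the 9 IPs (2476 CPM) and the lowest dopamine marker sum (7849 CPM). With it, 4 of 9 genes were higher in SNr than in SNc (5.73% of all genes), namely Actn1, Actn4 by 0.95 ± 0.17, Sptbn1 by 0.78 ± 0.20 and Macf1 by 0.73 ± 0.23. Without it, Sptbn1 stood at 0.37 and Macf1 at 0.18, neither called, and Sptan1 (-0.68), Ank2 (-0.46) and Ank3 (-0.74) were lower in SNr, where 9.18% of all genes were lower with the library kept. Macf1 was also not called in SNr against SNc without any one of SNc IPs 1, 2 and 3 (adjusted p = 0.076, 0.0826 and 0.0529 in edgeR). In SNr against VTA 4 of 9 were higher (15% of all genes) and Add2 was lower (-0.45 ± 0.12, 9.33% of all genes). Without SNr IP 3, Sptbn1 (0.39), Macf1 (0.26) and Ank2 (0.41) were no longer called in this comparison and Dst was newly called lower (-0.30, adjusted p = 0.0399 in edgeR). Macf1 and Ank2 were also not called without VTA IP 2 or without VTA IP 3.

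**Figure D5:**
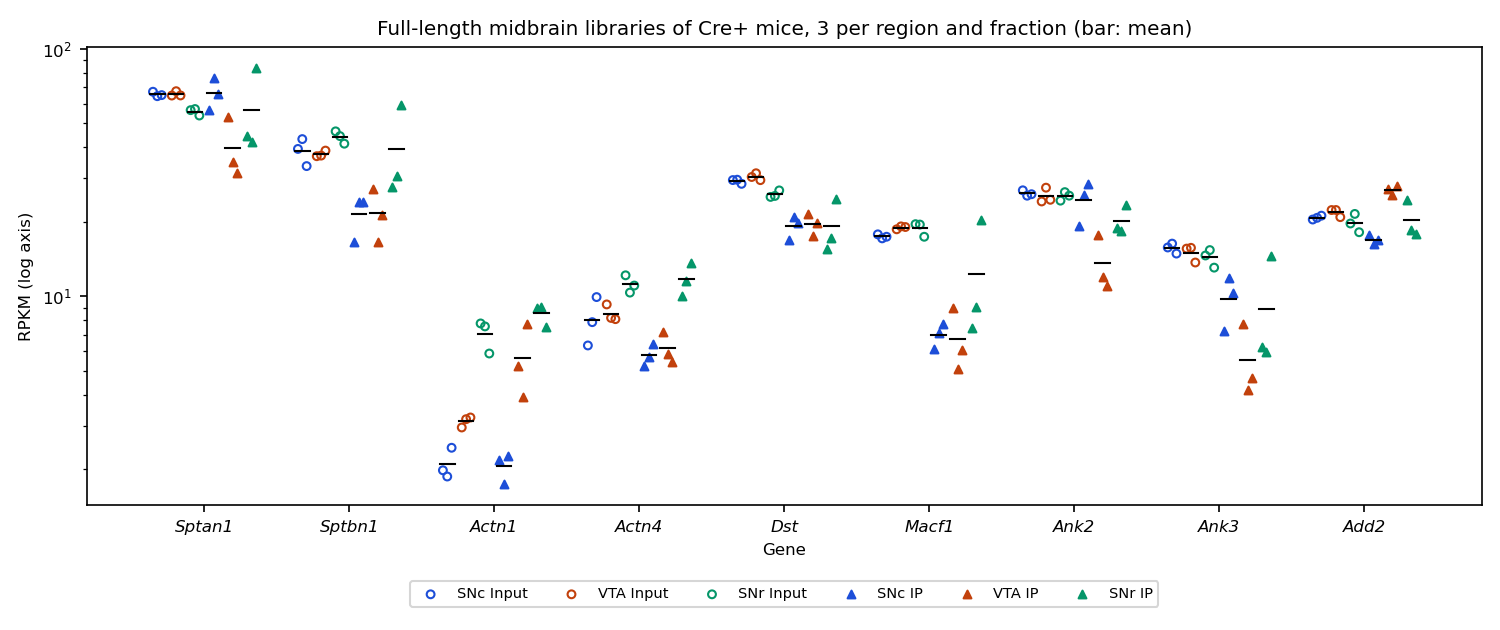
RPKM on a log axis for each gene in the 18 full-length libraries, with open circles for Inputs and triangles for IPs, blue for SNc, orange for VTA and green for SNr (3 libraries each), and bars at the means. Macf1 and Ank3 IPs of SNc and VTA lie below all Inputs, and Actn1 is lowest in SNc in both fractions.

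In the synaptosomes sorted on fluorescence these genes were lower than in the small particle samples, and so were long genes in general. Sptan1 was at 29.6 to 221 CPM in 12 FASS samples (median 109) and at 113 to 657 CPM in 12 small particle samples (median 277). Sptbn1 was at 140 to 421 CPM (median 241) against 396 to 1344 CPM (median 597). Ank3 had medians of 199 and 287 CPM. The ranges overlapped for all 9 genes, while 0.482% of all genes were lower without overlap, and Actn1 and Actn4 were at 0 in 7 of 12 FASS samples each, with 7 UMIs of Actn1 in all.

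In the test, 7 of 9 genes were lower in FASS (23.4% of 11000 genes). Sptan1 fell by 1.82 ± 0.30, Sptbn1 by 1.81 ± 0.22, Dst by 1.74 ± 0.26, Ank2 by 1.68 ± 0.25, Macf1 by 1.41 ± 0.27, Add2 by 1.22 ± 0.39 and Ank3 by 0.94 ± 0.28. The median of all genes was -0.86 and that of genes with over 10 kb of exon -1.50, of which 49.9% were lower, against 7.85% of genes under 2 kb. Relative to the median of all genes the 9 lay between -0.96 and -0.07. Actn4 (-1.23, adjusted p = 0.07 in edgeR) and Actn1 (-0.93, adjusted p = 0.1996) were not called. Among the other lists 8 of 11 adaptors, 5 of 11 crosslinkers and 10 of 12 ankyrin-bound membrane proteins were lower.

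The 3 kinds of sorted particle were not shown to differ. The test across them called 0 of 9 genes (0.0455% of all genes), with none of the 9 among 431 genes at an unadjusted p under 0.05 in edgeR and 0 calls among the 9 in DESeq2. Taken alone, 6 of 9 were lower in the striatal DAT-EGFP samples (7.35% of all genes), 4 of 9 in the cortical VGLUT1 samples (3.2%) and 0 of 9 in the striatal VGLUT1 samples (0.791%), which number 6, 3 and 3. Dopamine neuron markers summed to 0 to 73.5 CPM in the FASS samples with a median of 0.

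Synaptosome Inputs outnumbered IPs, with 12 Cre- and 16 Cre+ ventral midbrain Inputs for 6 and 8 IPs, and 12 and 12 striatal Inputs for 4 and 4 IPs. Where several Inputs come from 1 mouse, the p-values against Input are too small. Immunoprecipitates of ventral midbrain synaptosomes gave 2 calls against Input, and both changed without 1 library. Untagged IPs differed from Inputs for 0 of 9 genes in edgeR and in DESeq2 (2.2% of 12960 genes in edgeR, with 1 of the 9 among 1362 genes at an unadjusted p under 0.05). Tagged IPs were lower for Sptbn1 (-0.73 ± 0.26, 5.7% of all genes) and higher for Ank3 (1.05 ± 0.31, 6.46% of all genes). Cre+ IP 2 held 1503 CPM of Ank3, 168 UMIs, while the other 7 Cre+ IPs held 23.3 to 154 CPM and the Cre+ Inputs 87.7 to 256 CPM. Without that library Ank3 turned to -0.98 ± 0.28 (adjusted p = 0.00899 in edgeR) and Sptbn1 to -0.62, not called. Sptbn1 was also lower in Cre+ than in Cre- IPs (-1.32 ± 0.35, 1.16% of all genes), at 0 to 151 CPM in the former and at 484, 409, 267, 160, 49.8 and 60.5 CPM in the latter. The interaction of genotype and fraction called 0 of 9 in edgeR (1.03% of all genes, with 3 of the 9 among 1353 genes at an unadjusted p under 0.05) and 1, Dst at -1.24, in DESeq2.

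Striatal synaptosomes were the shallowest set, with 1137 to 23921 UMIs in Inputs and 21218 to 54675 in IPs. Their dopamine neuron markers went beyond those of striatal tissue, with medians of 1655 and 1469 CPM in Cre- and Cre+ synaptosome Inputs against 65.3 and 60.2 CPM in the striatal Inputs of that age. No member differed between untagged IPs and Inputs in edgeR or DESeq2 (4.21% of 7002 genes in edgeR, with 1 of the 9 among 1067 genes at an unadjusted p under 0.05). In tagged IPs Add2 alone was called, higher than in Inputs by 3.40 ± 0.52 (0.328% of all genes), with an interaction of genotype and fraction of 3.80 ± 0.84 (0.0571% of all genes), and it rested on Cre+ IP 1. That library held 1786 CPM of Add2, 41 UMIs, against 137, 47.1 and 227 CPM in the other Cre+ IPs and 0 to 105 CPM in the 4 Cre- IPs. Without it Add2 was at 1.48, and at 1.89 for the interaction, neither called (adjusted p = 0.441 and 0.78 in edgeR).

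Across the 68 striatal IPs, 8 of the members varied together from library to library. Pearson's r of log2 CPM ran from 0.34 to 0.82 over the 28 pairs without Add2 (median 0.54), and from -0.23 to 0.20 for Add2 with the rest. These are descriptions over libraries that share plates and preparations, and the mean profile of the members had an r of 0.54 with the log10 total count. Most like that profile among 3598 genes over 50 CPM were Ppp1r9a, the actin-binding spine protein neurabin, at 0.857, the non-muscle myosin Myh10 at 0.845, Myo5a at 0.821, Fbxo34 at 0.810 and Actn2 at 0.767. Ppp1r9a averaged 3236 CPM in the P7 IPs of BH001 and 160 CPM in those of PB003 and PB008, and 4617 and 468 CPM in the Cre- and Cre+ IPs of 10-14 months. Actb, which encodes beta-actin itself, had an r of -0.44, with 3603 and 5577 CPM in these P7 sets and 3266 and 4941 CPM at 10-14 months. Another actin gene, Actg1, had an r of -0.11, with 1964 and 1916 CPM in the P7 sets and 1205 and 1152 CPM at 10-14 months. Over the 18 full-length libraries the most alike of 3981 genes were Utrn at 0.959, Med13 at 0.947, Plec at 0.918, Limch1 at 0.915 and Syne1 at 0.914. These genes had lower mean CPM in IPs than in Inputs, as for Utrn at 37.8 and 100 CPM. The members did not all vary together there. With Sptan1, Actn1 had an r of -0.51 and Add2 of -0.62, while Sptbn1 and Macf1 had an r of 0.93.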

How the data were processed

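The UMI libraries are 3' end PLATE-seq counts that the authors made by trimming poly(A), aligning with STAR to GENCODE vM10 and collapsing UMIs; the deposited counts are whole numbers per gene. The full-length libraries (SMARTer Stranded Total RNA) were deposited as read counts, for which the submitters' notes name Bowtie2, STAR 2.6.7a, featureCounts 1.6 and GRCm38.p6. Repeat wells of 1 preparation (PB003 and PB008, and small particles) were summed. The 5 reporter rows (0.000205% of UMIs) were left out. Genes with at least 10 UMIs over a fit's samples (full-length libraries: filterByExpr) were tested with edgeR 4.0.16 quasi-likelihood in R 4.3.3, with median-of-ratios size factors for UMI counts and TMM for full-length counts; DESeq2 1.42.0 was an alternative. The fit was tested on simulated data. CPM use the summed counts of all genes as the total. Every member was named in every comparison, and members and lists were chosen with earlier results of these data known. Not every gene of the lists is reported here. No paired model entered the main fits, and the preparation number of the FASS set entered as a block in an alternative only.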

Additional observations from a re-analysis of the deposited data

Results flagged for a closer look

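In the striatum at 10-14 months the change with genotype differed between IPs and Inputs for 8 genes, by -3.489 for Sptan1, -2.672 for Sptbn1, -4.257 for Actn1, -3.919 for Actn4, -3.102 for Dst, -2.3 for Macf1, -2.309 for Ank2 and -1.802 for Ank3 on the log2 scale (edgeR interaction term). DESeq2 called 3 of these, Sptan1, Actn1 and Actn4. In the midbrain the same term was called for 7 genes, at -2.024 for Sptan1, -1.852 for Sptbn1, -2.046 for Actn4, -1.334 for Dst, -1.913 for Macf1, -1.901 for Ank2 and -2.433 for Ank3. In striatal synaptosomes it was called for Add2, at 3.802.

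Single libraries stood apart from their group of 4 to 10 by Dixon's criterion in 19 of 197 groups of values (9.64%). Chance gives about 1 in 20 for normally distributed values. Several flags set a low value against 0 CPM in the nearest library, as for Actn4 at 43.57 CPM and Actn1 at 23.76 CPM below. Such values rest on very few UMIs, so the share cannot be compared with that rate. The highest levels among them were Add2 at 1786 CPM in striatal synaptosome Cre+ IP 1 and Ank3 at 1503 CPM in ventral midbrain synaptosome Cre+ IP 2, next to 226.8 and 154.3 CPM in the nearest libraries. Among the other striatal synaptosome IPs, Actn1 was at 18.29 CPM in Cre- IP 4, Add2 at 0 in Cre- IP 3, Actn4 at 43.57 CPM in Cre+ IP 1, Ank2 at 136.1 CPM in Cre+ IP 4 and Ank3 at 45.76 CPM in Cre+ IP 2. In ventral midbrain synaptosomes Actn1 was at 23.07 CPM in Cre- IP 1 and at 23.29 CPM in Cre+ IP 6.

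Among midbrain IPs, Macf1 was at 560.8 CPM in SNr Cre- IP 5, Ank3 at 464.7 CPM in SNr Cre- IP 6, Actn1 at 23.76 CPM in SNr Cre- IP 3 and Add2 at 148.2 CPM in SNr Cre+ IP 4. In SNc Cre+ IPs, Actn1 was at 91.97 CPM in IP 1 and Actn4 at 31.47 CPM in IP 2. Among Inputs, Sptbn1 was at 187.2 CPM in VTA Cre+ Input 2, Ank3 at 245.8 CPM in SNr Cre- Input 6, and at 10-14 months in striatum Actn4 was at 35.96 CPM in Cre+ Input 3 and Ank2 at 228.3 CPM in Cre+ Input 2.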

How the results depend on the processing

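The gene-level results were recomputed with TMMwsp scaling, DESeq2, no filter on low counts and samples left out, and 1376 kept their side of the threshold, while 122 fell short of it, 41 newly passed it and 13 turned sign. The settings that leave out the P7, 10-14 month or other named libraries, all libraries under 10000 UMIs, or the IPs altogether were chosen after seeing the data. Counts of the 9 members that moved by over 1.5 times were as follows. For striatal IPs over Inputs the count went from 8 (Cre-) and 9 (Cre+) to 4 and 2 with wells not summed, to 0 and 1 on plates PB003 and PB008 alone, and to 3 and 2 without the P7 IPs of BH001 and the 10-14 month samples, with 2 in Cre+ mice without those P7 IPs only. With wells not summed, 1 of the 4 in Cre- mice was Add2, which was called lower there (-0.58, adjusted p = 0.0041 in edgeR). At 10-14 months the interaction count of 8 became 3 in DESeq2 and 2 without Cre- IPs 5 and 6, and the IP contrast of 8 became 5 without them. Midbrain untagged IPs went from 5 to 2 with TMMwsp. In full-length IPs SNr against VTA went from 5 to 8 with size factors and 3 with only the 2 groups compared, and SNr against SNc from 4 to 2 with only those. In DESeq2 the ventral midbrain synaptosome counts became 1 for tagged IPs (from 2) and 1 for the interaction (from 0), and the striatal synaptosome interaction became 0 (from 1). The causes were not tested, and the share of all genes called is not given for every setting.

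Values that turned sign were Add2 in striatal Cre- IPs (-0.10 with TMMwsp, -0.58 with wells not summed) and in Cre+ IPs (-0.16 with wells not summed). On plates PB003 and PB008 alone they were Dst (-0.36), Macf1 (-0.050) and Ank3 (-0.32) in Cre- IPs, and Actn1 (-0.40), Dst (-0.078), Macf1 (-0.30), Ank2 (-0.14) and Ank3 (-0.60) in Cre+ IPs. Dst in SNr against VTA full-length IPs was at 0.018 without SNr IP 1, and Ank3 in ventral midbrain synaptosomes at -0.98 without Cre+ IP 2. Over all genes, higher and lower calls were 3140 and 1292 in striatal Cre- IPs (1321 and 4077 with TMMwsp), 3608 and 1131 in Cre+ IPs (1569 and 3623), 1349 and 613 in midbrain Cre- IPs (573 and 1916), 410 and 789 for the midbrain interaction (680 and 369), and 987 and 1583 for full-length SNr against SNc IPs (1301 and 1282 with size factors). The median of all genes in FASS against small particles was -0.86, and -0.99 with TMMwsp or -0.39 in DESeq2.

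Leaving out 1 library at a time gave 8 to 8 of the members for the 10-14 month IP contrast and 5 to 8 for its interaction, with 5 without Cre- IP 5. With Cre+ libraries alone left out in turn, it gave 5 to 7 for midbrain tagged IPs, 7 to 7 for the midbrain interaction and 0 for each regional UMI contrast. Full-length IPs gave 6 to 7 in SNc, 7 to 8 in VTA, 4 to 6 in SNr, 3 to 5 for SNr against SNc, 4 to 5 for VTA against SNc and 3 to 7 for SNr against VTA, with 3 without VTA IP 2 or SNr IP 3. FASS gave 7 to 8, with the 12 VGLUT1 libraries alone left out in turn. Striatal synaptosome tagged IPs and interaction gave 0 to 1, with IPs alone left out. For ventral midbrain synaptosomes only Cre+ IP 2 was left out, a library chosen after its value was seen, and tagged IPs gave 1. With the preparation as a replicate block, FASS against small particles called 7 members, and the block changed no call; same-numbered pairs correlated from -0.149 to 0.424, and 5 of 12 over 0.1. Depth limits Actn1 and Actn4 most, at 7 UMIs each over all FASS samples.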

Other observations

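The 6 P7 IPs of plate BH001 were above every IP of another age on that plate for 54 genes (0.411%), a list chosen after the values were seen. It held 7 of the members, and no enrichment of any group was tested in it. By the ratio of mean CPM to that of the other ages, the first 10 were the angiomotin gene Amot at 34.6, the drebrin gene Dbn1 at 23.7, Actn2 at 21.4, Limch1 at 20.7, the non-muscle myosin gene Myh9 at 20.1, Sptan1 at 19.1, Fbxo34 at 18.6, the centrosomal gene Cep290 at 14.8, Lmo7 at 13.9 and the non-muscle myosin gene Myh10 at 13.8. Lower in the list stood, among others, the ubiquitin-activating enzyme gene Uba1 at 5.79, the ribosomal protein genes Rps2 at 2.43 and Rps29 at 2.06, and the ferritin gene Fth1 at 1.67. At 10-14 months Dbn1 averaged 1325 CPM in Cre- and 102 CPM in Cre+ striatal IPs, and Myh9 averaged 264 and 144 CPM.

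Between the high and the low striatal IPs lay a few libraries of plates PB003 and PB008, singled out after their values were seen. Sptbn1 was at 1496 and 1875 CPM in P14 Cre+ IPs 5 and 6 and at 1383 CPM in P31 Cre- IP 2, and Sptan1 was at 1221, 677 and 1037 CPM in the same libraries.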
